A study of Mus musculus with 6 samples.

Results

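The Slc25 mitochondrial carriers are a family of transporters of the inner mitochondrial membrane, and the 43 members described here were taken from 48 gene rows whose mouse symbol begins with Slc25a, out of 57132 gene rows in all. A row was kept when it had 10 or more counts in at least 3 of the 6 libraries, and Slc25a37 was left aside. The 43 hold 42 protein-coding genes and 1 pseudogene, Slc25a5-ps. The count minimum left out 4 rows: Slc25a2 had 2 to 8 counts per library, Slc25a31 had 0 to 8, Slc25a41 had 0 to 4 and Slc25a54 had 0 in every library. Just inside it lay Slc25a5-ps with 7 to 22 counts and Slc25a18 with 11 to 40.

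RNA sequencing was done on isolated glomeruli, the filtering units of the kidney, of mice labelled as having diabetic kidney disease. The genotype was Cre-/Setdb2fl/fl in 3 samples (Cre_negative below) and Cre+/Setdb2fl/fl in 3 (Cre_positive), so that every sample, the controls included, was diabetic and carried floxed alleles of Setdb2, a gene for a putative histone H3 lysine 9 methyltransferase. Per the series' design text the comparison asks what SETDB2 of podocytes, the epithelial cells that wrap the glomerular capillaries, does in this disease. No source used here states the Cre driver, the diabetes model, or the age and sex of the animals, and the labels do not say that replicates came from separate mice, so the p-values measure only the spread between these samples, which may be technical.

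Carriers of this family exchange metabolites, nucleotides, inorganic ions and cofactors between the cytosol and the mitochondrial matrix, and most share a fold made of repeated pairs of transmembrane helices. They supply ADP and phosphate to the ATP synthase, bring in fatty acyl groups and amino acids, and move reducing equivalents. In the kidney, mitochondria are most abundant in the tubules, above all the proximal tubule, and podocytes and endothelial cells hold fewer.

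The libraries held 53571438 to 58807042 counts. Setdb2 was not lower beyond its error in Cre_positive libraries, at 370 to 591 counts in Cre_negative and 391 to 444 in Cre_positive ones (log2 fold change -0.12, SE 0.18, adjusted p = 0.738 in edgeR's quasi-likelihood test), and bulk gene-level counts may not show a deletion within 1 cell type. Xist had 24 counts in Cre_positive replicate 2 and 36474 to 47632 in the other 5 libraries, so the call of each member is also given without that library. All 12 podocyte markers were measured, with a summed level of 652 to 731 CPM (read counts scaled to library size) in Cre_negative and 874 to 972 CPM in the Cre_positive group. The 14 proximal tubule markers summed to 11096 to 13148 CPM in Cre_negative and 22876 to 23615 CPM in the Cre_positive group, so tubule RNA was abundant in the isolates. Of these tubule markers 7 rose and 7 did not pass. Kap, the androgen-regulated kidney protein gene, went from 138 to 448 CPM in Cre_negative to 5582 to 6818 CPM in Cre_positive libraries, and without it, a choice made after its values were seen, the sums were 10959 to 13002 and 16159 to 17832 CPM. Slc22a6, which did not pass, lay lower in Cre_positive without overlap (458 to 737 against 325 to 379 CPM), and Slc27a2 and Ggt1 overlapped between the genotypes. Of 10 markers of injured epithelium 6 fell and 4 did not pass. The 6 that fell summed to 485 to 873 CPM in Cre_negative and 317 to 365 CPM in the Cre_positive group, and all 10, with Spp1 and Clu the most abundant and neither past the threshold, to 4514 to 12807 and 2346 to 2612 CPM. In bulk RNA, fewer cells of a type and less RNA per cell cannot be told apart.

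In the Cre_positive libraries 6 carriers fell, 3 rose and 34 did not pass an adjusted p of 0.05. The falls were Slc25a25, Slc25a24, Slc25a20, Slc25a22, Slc25a30 and Slc25a34, and the rises Slc25a38, Slc25a35 and Slc25a51. The largest was that of Slc25a25, a calcium-regulated carrier of ATP-Mg and phosphate, whose Cre_positive level was 0.277 times the Cre_negative one. The most abundant carriers, among them the ATP/ADP exchangers Slc25a4 and Slc25a5 and the phosphate carrier Slc25a3, did not pass. The 9 called members are 20.9% of the 43, where 7.55% of all 19927 genes tested passed in edgeR's quasi-likelihood test with Benjamini-Hochberg adjustment over all genes. Lower calls made up 3.82% and higher calls 3.73% of all genes. The median log2 fold change of the members was -0.06, beside -0.0009 over all genes. Without Cre_positive replicate 2 a single member passed, Slc25a30, where 2.94% of all genes did. Leaving out Cre_positive replicate 1 or 3 left 2 members each (3.4% and 2.24% of all genes). Leaving out Cre_negative replicate 1, 2 or 3 gave 8, 8 and 10 members (5.58%, 5% and 9.92% of all genes). Other tools and settings on all 6 libraries gave 12 members with DESeq2 (13.5% of all genes), 9 with limma voom (8.31%), 9 with upper-quartile scaling (7.56%) and 8 with DESeq2 size factors (7.47%). The count was 8 with robust=FALSE (7.4%), 7 with no filter on low counts (4.6%), 9 with a filter of 1 CPM (10.3%) and 8 with a replicate block (7.73%).

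**Figure D1:**
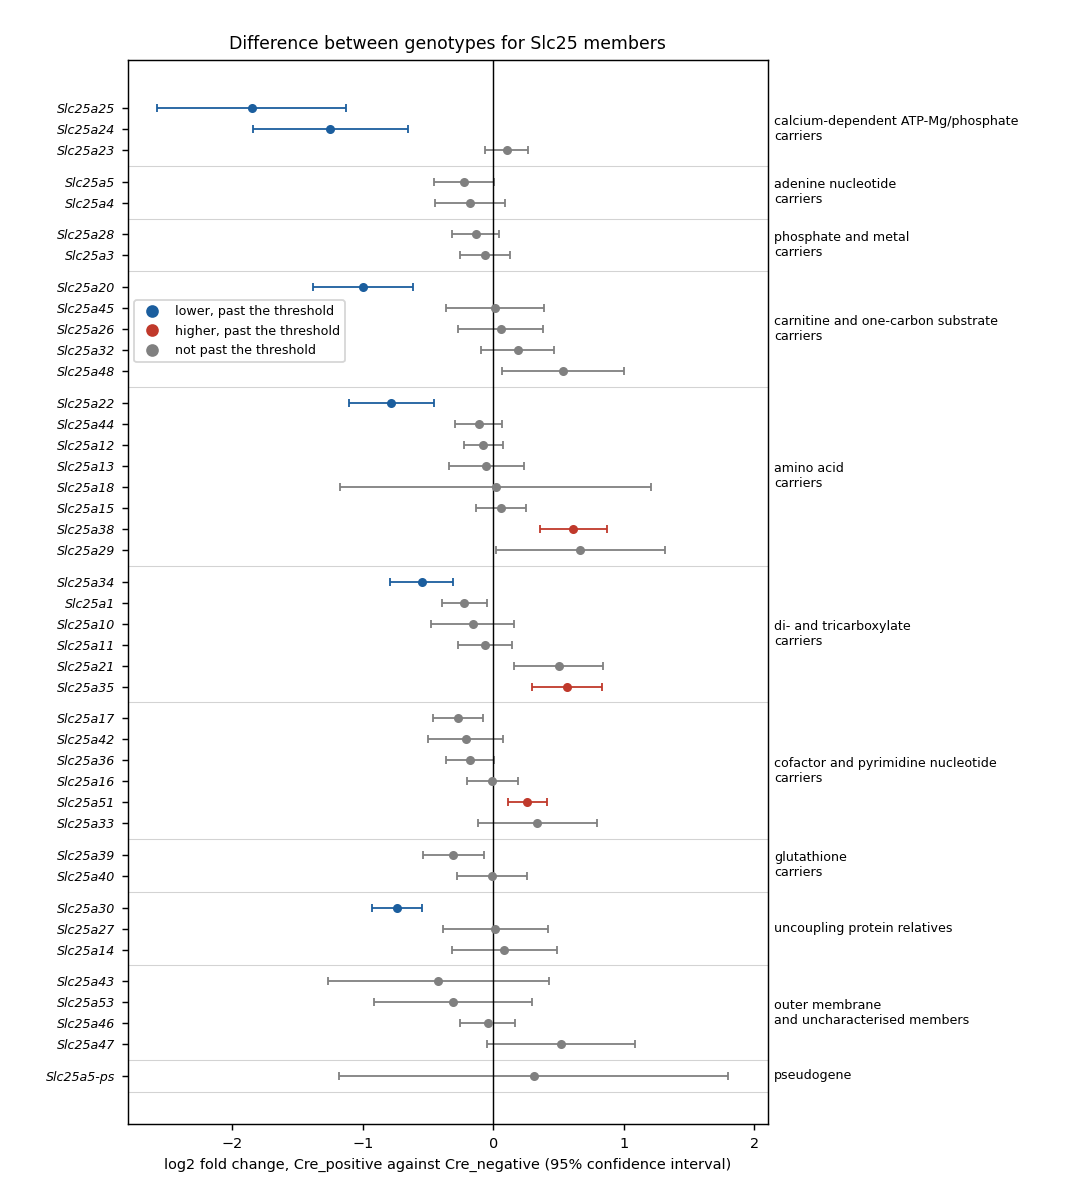
Log2 fold change of the members reported here in Cre_positive against Cre_negative libraries, with 95% confidence intervals, in role groups. Groups are named for substrates, for relatives or for other traits, and the substrates of Slc25a34 and Slc25a35 are poorly known. Blue points are the 6 members that fell and red points the 3 that rose at an adjusted p of 0.05; the grey points did not pass, and their values ran from -0.42 to 0.67.

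The genotypes did not overlap in CPM for 17 of the 43 members (39.5%), 11 lower and 6 higher in Cre_positive, where 29.7% of all genes did not overlap. All 9 called members were among them. Without adjustment 15 members had a p under 0.05 (34.9%), beside 23.5% of all genes.

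The calcium-dependent ATP-Mg/phosphate carriers load the matrix with adenine nucleotides in exchange for phosphate. A calcium-binding domain that faces the intermembrane space regulates them. Of the 3 measured, 2 fell and Slc25a23 did not pass. Slc25a25 (ENSMUSG00000026819) had read counts of 10246, 20451 and 14487 in Cre_negative replicates 1, 2 and 3, against 3696, 3634 and 4628 for Cre_positive. These are 168.7, 365.9 and 257 CPM against 69.3, 63.8 and 86.2 CPM. Every Cre_negative library lay above every Cre_positive one, and the Cre_negative libraries spread more than 2-fold among themselves. The means were 264 ± 98.8 and 73.1 ± 11.7 CPM (SD, n = 3), a log2 change of -1.85 (SE 0.30, 95% confidence interval -2.58 to -1.13, adjusted p = 0.0204). The call ended without Cre_positive replicate 1 (adjusted p = 0.0762) or 2 (0.0736) and without Cre_negative replicate 3 (0.0542), while the log2 fold change stayed between -2.09 and -1.55. It also missed the threshold narrowly when genes of low count were not filtered out (0.0503). Naif1 lies on the opposite strand and shares 379 bases of exon with Slc25a25; it had 2266 counts in all 6 libraries together, against 57142 for Slc25a25, and a log2 change of 0.002 (SE 0.16).

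RefSeq lists 3 promoters for Slc25a25 on GRCm38.p6, shown because this gene had the largest change of the family and because its starts carry different elements. Each runs from 250 bases before to 50 bases after a transcript start, 5′ to 3′ along the gene. Capitals mark matches to the motifs searched, which here are CCAAT, the GC box GGGCGG and the cAMP response element TGACGTCA, on either strand. The window of the farthest upstream start is at chr2:32451421-32451720, minus strand. The second is at chr2:32431102-32431401, minus strand, and the third at chr2:32424017-32424316, minus strand.
Slc25a25 upstream start: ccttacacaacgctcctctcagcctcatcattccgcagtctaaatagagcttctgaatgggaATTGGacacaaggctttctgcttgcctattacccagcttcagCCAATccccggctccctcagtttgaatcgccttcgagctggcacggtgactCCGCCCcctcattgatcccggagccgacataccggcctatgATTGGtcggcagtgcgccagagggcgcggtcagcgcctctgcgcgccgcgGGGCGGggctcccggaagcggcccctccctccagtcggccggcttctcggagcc
Slc25a25 middle start: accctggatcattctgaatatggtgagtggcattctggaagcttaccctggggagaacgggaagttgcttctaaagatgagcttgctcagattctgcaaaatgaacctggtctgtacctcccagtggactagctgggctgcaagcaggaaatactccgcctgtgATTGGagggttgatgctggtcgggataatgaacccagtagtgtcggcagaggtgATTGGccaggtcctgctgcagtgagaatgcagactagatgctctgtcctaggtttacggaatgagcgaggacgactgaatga
Slc25a25 downstream start: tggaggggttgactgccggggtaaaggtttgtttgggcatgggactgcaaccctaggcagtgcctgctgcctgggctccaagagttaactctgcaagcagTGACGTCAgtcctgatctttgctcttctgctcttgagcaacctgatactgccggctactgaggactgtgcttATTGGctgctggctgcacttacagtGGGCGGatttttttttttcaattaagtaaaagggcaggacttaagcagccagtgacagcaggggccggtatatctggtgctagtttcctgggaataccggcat
The upstream promoter holds 25 CpG dinucleotides and has a GC content of 63%, against 7 CpG and 51.3% in the middle one and 6 CpG and 52.3% in the downstream one. TGACGTCA begins 150 bases before the downstream start, and CCAAT occurs in all 3 windows. The last bases of the downstream window were not found near the start of a GENCODE transcript of this gene. Gene-level counts do not separate the starts, so which of them the fall belongs to was not tested.

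Slc25a24 (ENSMUSG00000040322), a paralog with the same substrates, had 25.8, 13.5 and 13.5 CPM in Cre_negative replicates 1, 2 and 3 and 7.50, 7.88 and 6.82 CPM in the Cre_positive ones. Cre_negative replicate 1 stood high, and the other Cre_negative libraries were still above all Cre_positive ones. The log2 fold change was -1.25 (SE 0.26, adjusted p = 0.0257), and the call ended without any single Cre_positive library (adjusted p = 0.0938, 0.0943 and 0.114 without replicates 1, 2 and 3). Markers of injured epithelium, macrophages and dividing cells were likewise highest in Cre_negative replicate 1, at 12807, 356 and 304 CPM in sum, and their part in this value was not tested. Without that library the log2 fold change was -0.86 and the call held. Slc25a23, the third of these carriers, had 144 to 164 CPM in Cre_negative and 161 to 171 CPM in the Cre_positive group, a log2 change of 0.10 (SE 0.072, 95% confidence interval -0.06 to 0.26, adjusted p = 0.457).

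Scaled to exon length, the shares of Slc25a25 and Slc25a23 did not overlap between the genotypes. Slc25a25 held 36.5%, 57.2% and 51.3% of their summed CPM per kb in Cre_negative replicates 1, 2 and 3, as against 21.2%, 18.999% and 24.7% for Cre_positive. The share of Slc25a23 was 38.0% to 50.7% in Cre_negative and 70.8% to 75.6% in Cre_positive libraries. Slc25a24 took 12.8% in Cre_negative replicate 1 and 4.47% to 6.15% elsewhere. In level, Slc25a25 was above Slc25a23 in Cre_negative replicates 2 and 3, at 46.6 against 30.9 and 32.7 against 27.2 CPM per kb, and below it in the other 4 libraries.

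**Figure D2:**
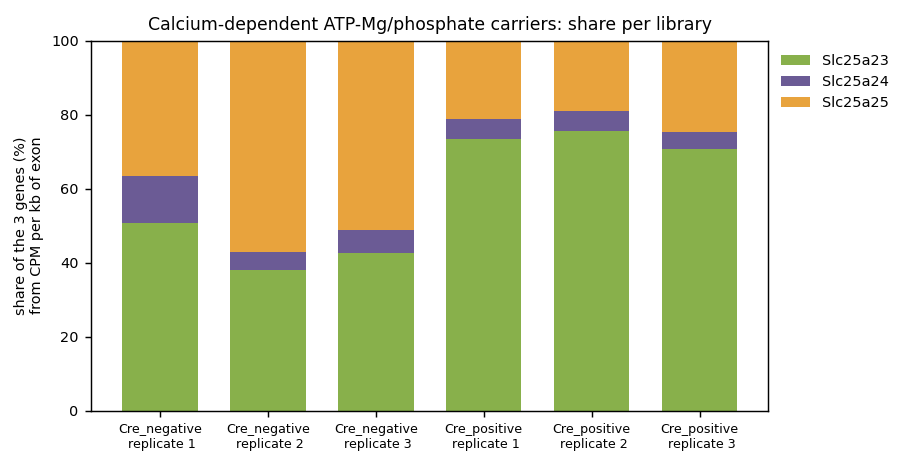
Share of Slc25a23, Slc25a24 and Slc25a25 in their summed CPM per kb of exon, as stacked bars for each of the 6 libraries. Slc25a25 (orange) takes 36.5% to 57.2% in Cre_negative and 18.999% to 24.7% in Cre_positive libraries.

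Slc25a20 (ENSMUSG00000032602) encodes the carnitine-acylcarnitine carrier, which brings long-chain fatty acyl groups into the matrix for oxidation. It had 92.9, 128.7 and 79.6 CPM in Cre_negative replicates 1, 2 and 3 and 48.5, 49.2 and 52.7 CPM in the Cre_positive ones. The Cre_positive libraries were close together and all below the lowest Cre_negative one. The Cre_positive level was 0.4996 times the Cre_negative one (log2 fold change -1.001, SE 0.16, adjusted p = 0.0135). Leaving out any single Cre_positive library ended the call (adjusted p = 0.0590, 0.0636 and 0.0575). The other 4 members of its group did not pass: the folate carrier Slc25a32, the S-adenosylmethionine carrier Slc25a26, Slc25a45 and Slc25a48, with log2 fold changes between 0.009 and 0.54. Slc25a48 had the highest log2 fold change of these, 0.54 (SE 0.20), with 13.5 to 19.5 CPM in Cre_negative and 17.0 to 27.5 CPM in the Cre_positive group, and the genotypes overlapped (adjusted p = 0.158).

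The promoters of the other 2 members whose level fell at least 2-fold are shown beside those of Slc25a25, with the same motifs in capitals (GRCm38.p6, RefSeq). That of Slc25a20 is at chr9:108661886-108662185, plus strand, and that of Slc25a24 at chr3:109122899-109123198, plus strand.
Slc25a20: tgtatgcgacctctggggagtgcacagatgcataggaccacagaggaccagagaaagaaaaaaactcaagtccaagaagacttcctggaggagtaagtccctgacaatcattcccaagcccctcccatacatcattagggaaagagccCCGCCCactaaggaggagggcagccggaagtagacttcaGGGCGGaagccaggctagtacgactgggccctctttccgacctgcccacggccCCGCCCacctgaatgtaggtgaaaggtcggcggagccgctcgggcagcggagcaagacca
Slc25a24: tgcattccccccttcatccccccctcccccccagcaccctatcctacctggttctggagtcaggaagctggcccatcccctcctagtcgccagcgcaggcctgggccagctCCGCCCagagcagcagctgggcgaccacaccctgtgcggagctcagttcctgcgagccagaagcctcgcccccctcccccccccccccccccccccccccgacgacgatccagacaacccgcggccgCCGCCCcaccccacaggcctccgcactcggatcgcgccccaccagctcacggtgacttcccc
Slc25a20 has 3 GC boxes, at 102, 63 and 10 bases before its start, and Slc25a24 has 2, at 139 and 12 bases. Neither window holds CCAAT or TGACGTCA. The promoter table covered 34 of the 43 members, with 44 promoters, and 7 of the 9 called ones. A GC box was found in 84.1% of these 44 promoters and in 35.7% of all 32851 promoters of the table, and CCAAT in 50.0% and 37.4%. TATAAA was found in 2 of the 44 member promoters (4.55%) and 13.6% of all, CACGTG in 7 (15.9%) and 7.15%, and TGACGTCA in 2 (4.55%) and 1.79%. The last bases of both TATAAA windows, of Slc25a18 and Slc25a21, were not found near the start of a GENCODE transcript. The same held for the TGACGTCA window of Slc25a25. The 7 windows with CACGTG belong to 6 genes, and overlapping windows can count a site more than once. The PPAR direct repeat, the NRF1 site and TCAAGGTCA, a motif of oestrogen-related receptors, were in none of the member windows and in 0.0396%, 0.971% and 0.423% of all. The median number of CpG dinucleotides was 15 in member promoters and 7 in all. The members had passed a count minimum, while the full set of promoters was not limited to genes with counts here. Whether the members differ in these motifs from other expressed genes was not tested.

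Among 8 amino acid carriers, 1 fell, 1 rose and 6 did not pass. Slc25a22 (ENSMUSG00000019082), which carries glutamate with a proton, had 46.1, 60.1 and 40.8 CPM in Cre_negative replicates 1, 2 and 3 and 30.2, 25.7 and 29.6 CPM in the Cre_positive ones. The genotypes did not overlap (log2 fold change -0.78, SE 0.14, adjusted p = 0.0157). The call ended without Cre_positive replicate 2 (0.0694) or 3 (0.0669). Slc25a18, the other glutamate carrier, was near the count minimum with 0.197 to 0.711 CPM, and it overlaps by 32 bases of exon with Atp6v1e1 on the opposite strand, which had 87159 counts in all against its 168.

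Slc25a38 (ENSMUSG00000032519), which brings glycine into the matrix for haem synthesis, moved the other way. Its levels were 20.1, 25.5 and 26.9 CPM in Cre_negative replicates 1, 2 and 3 and 36.6, 36.0 and 38.1 CPM in the Cre_positive ones, with no overlap. The log2 fold change of 0.61 (SE 0.11) had an adjusted p of 0.0155, which rose to 0.0569, 0.0584 and 0.0782 without Cre_positive replicates 1, 2 and 3. Red blood cell markers, none of which passed singly, summed to 71.5 to 215.9 CPM in Cre_negative and 216 to 584 CPM in the Cre_positive group, and their part in the rise was not tested.

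The aspartate/glutamate carriers of the malate-aspartate shuttle did not pass. Slc25a12 averaged 107.3 ± 3.02 CPM in Cre_negative and 101.6 ± 4.53 CPM in the Cre_positive group (SD, n = 3), and Slc25a13 116.6 ± 19.8 and 112.2 ± 9.58 CPM. Nor did the ornithine carrier Slc25a15 (123 ± 12.6 and 128.3 ± 3.79 CPM) or Slc25a44, a carrier of branched-chain amino acids (56.0 ± 3.97 and 51.8 ± 2.36 CPM). The basic amino acid carrier Slc25a29 had 3.00, 7.16 and 5.53 CPM in Cre_negative replicates 1, 2 and 3 and 8.91, 8.11 and 7.86 CPM in the Cre_positive ones. Its groups did not overlap, but its log2 fold change of 0.67 (SE 0.29) had an adjusted p of 0.202.

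The 6 di- and tricarboxylate carriers held 1 fall, 1 rise and 4 members that did not pass. The fall and the rise were in related members with poorly known substrates. Slc25a34 (ENSMUSG00000040740) had 33.5, 43.0 and 37.5 CPM in Cre_negative replicates 1, 2 and 3 and 24.1, 27.0 and 26.9 CPM in the Cre_positive ones, a log2 change of -0.55 (SE 0.11, adjusted p = 0.0185). Slc25a35 (ENSMUSG00000018740) had 24.6, 33.8 and 28.4 CPM in Cre_negative and 40.7, 45.1 and 42.6 CPM in Cre_positive replicates 1, 2 and 3, a log2 change of 0.57 (SE 0.12, adjusted p = 0.0233). In the Cre_negative libraries both genes were lowest in replicate 1 and highest in replicate 2, and between the genotypes they moved in opposite directions. Both calls ended without any single Cre_positive library, with adjusted p up to 0.0768 for Slc25a34 (0.0630 without replicate 2) and up to 0.0971 for Slc25a35 (without replicate 2). Slc25a35 shares 1151 bases of exon with Rangrf on the opposite strand. Rangrf had 1400 counts in all, against 12004 for Slc25a35, and a log2 change of -0.19 (SE 0.26).

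The remaining carriers of this group have known substrates. The citrate carrier Slc25a1 had 104 to 121 CPM in Cre_negative and 94.9 to 100.6 CPM in the Cre_positive group, with no overlap, and a log2 change of -0.22 (SE 0.076, adjusted p = 0.114). The oxodicarboxylate carrier Slc25a21 had 8.02 to 11.3 and 13.5 to 14.9 CPM, a log2 change of 0.50 (SE 0.15, adjusted p = 0.0839). The dicarboxylate carrier Slc25a10 averaged 366 ± 73.4 and 328 ± 28.8 CPM, and the oxoglutarate carrier Slc25a11 175.9 ± 17.6 and 168.4 ± 11.3 CPM. Their differences were smaller than the spread among the Cre_negative libraries.

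Slc25a30 (ENSMUSG00000022003), known as kidney mitochondrial carrier protein and a relative of the uncoupling proteins, had the smallest p of the family. Its levels were 161.8, 165.9 and 191.3 CPM in Cre_negative replicates 1, 2 and 3 and 106.1, 107.1 and 97.6 CPM in the Cre_positive ones. Replicates lay close together in both genotypes, and the groups were well apart. The Cre_positive level was 0.599 times the Cre_negative one (log2 fold change -0.74, SE 0.084, adjusted p = 0.00192). It was the sole called member to pass whichever library was left out, with log2 fold changes between -0.78 and -0.66 and adjusted p up to 0.0197 (0.0147 without Cre_positive replicate 2). Slc25a30 lies on chromosome 14, as does the targeted gene Setdb2. The other relatives of the uncoupling proteins, Slc25a14 and Slc25a27, had 4.28 ± 0.321 and 8.21 ± 0.812 CPM in Cre_negative and 4.53 ± 0.0316 and 8.29 ± 1.57 CPM in the Cre_positive group and did not pass.

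Among 7 carriers of cofactors and pyrimidine nucleotides, Slc25a51 rose and 6 did not pass. Slc25a51 (ENSMUSG00000045973), the mitochondrial importer of NAD, had 182.2, 183.2 and 173.6 CPM in Cre_negative replicates 1, 2 and 3 and 209, 221 and 215.5 CPM in the Cre_positive ones. The replicates were tight and the groups did not overlap. The rise of 1.20-fold (log2 fold change 0.26, SE 0.066, adjusted p = 0.0480) was the smallest call, and it ended whichever library was left out (adjusted p up to 0.169, and 0.168 without Cre_positive replicate 2). It shares 125 bases of exon with Gm25692 on the same strand. The peroxisomal carrier Slc25a17 had 137 to 165.8 CPM in Cre_negative and 121 to 124 CPM in the Cre_positive group, a log2 change of -0.27 (SE 0.084, adjusted p = 0.0906). The coenzyme A carrier Slc25a42, Slc25a16 and the pyrimidine nucleotide carriers Slc25a33 and Slc25a36 had log2 fold changes between -0.21 and 0.34.

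**Figure D3:**
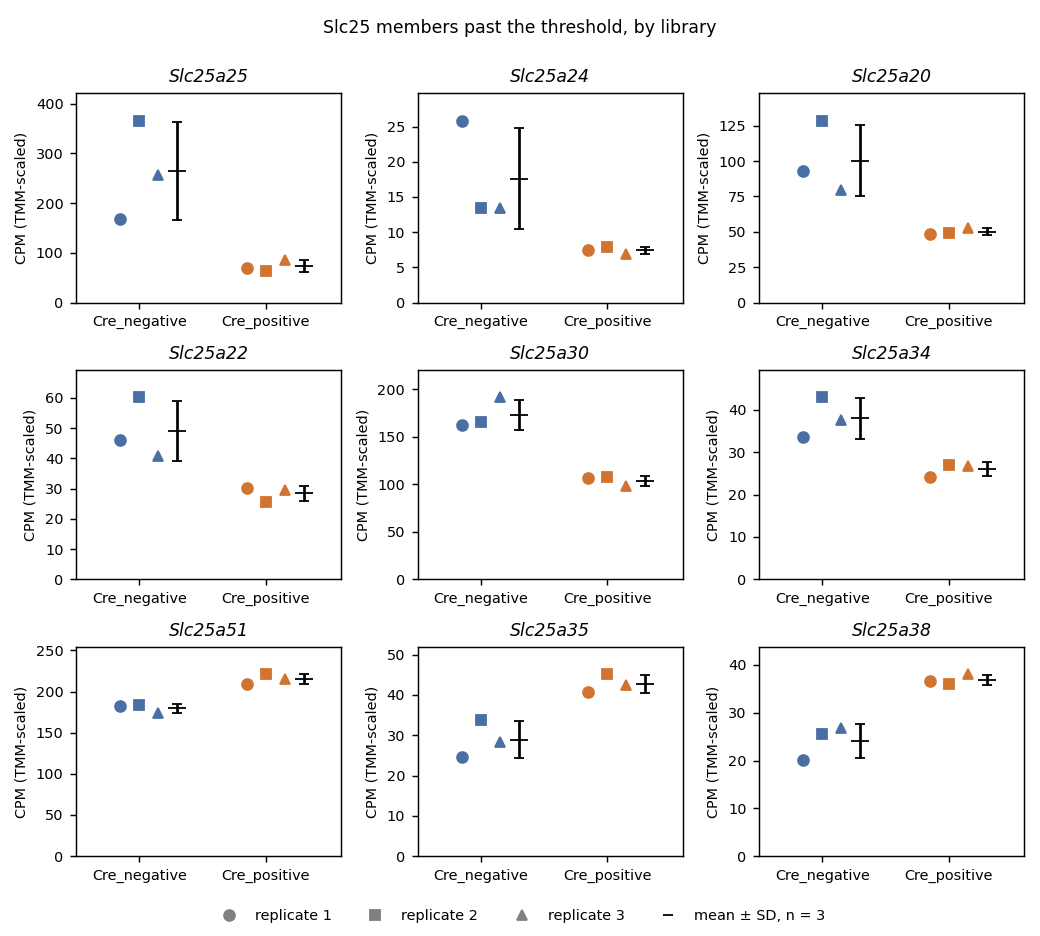
CPM of the 9 called members in each library, with a panel per gene ordered by log2 fold change. Blue symbols are Cre_negative and orange symbols Cre_positive libraries, their shapes give the replicate number, black bars give mean ± SD (n = 3), and each axis starts at 0; no panel shows an overlap between the genotypes.

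No member of the remaining groups passed. The phosphate carrier Slc25a3 had 1141, 1181 and 1044 CPM in Cre_negative replicates 1, 2 and 3 and 1069, 1082 and 1066 CPM in the Cre_positive ones, a log2 change of -0.06 with a 95% confidence interval of -0.25 to 0.12. Slc25a5, an exchanger of ATP for ADP, had 1017, 1205 and 962 CPM in Cre_negative and 889, 942 and 888 CPM in Cre_positive replicates. Its groups did not overlap, and the log2 fold change of -0.23 (SE 0.10) had an adjusted p of 0.218. Slc25a4, the other exchanger, had 313 to 426 CPM in Cre_negative and 334 to 345 CPM in the Cre_positive group. Of the summed CPM of these 2 exchangers, Slc25a5 took 70.9% to 75.5% in Cre_negative and 72.0% to 73.8% in Cre_positive libraries. Its pseudogene Slc25a5-ps had 0.309 (SE 0.66) as log2 fold change, and reads of such near-identical copies can be split or shared, so its value is uncertain.

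Slc25a39, a glutathione importer, had 518.8, 622.9 and 487 CPM in Cre_negative replicates 1, 2 and 3 and 428.7, 455.5 and 432.6 CPM in the Cre_positive ones. The groups did not overlap, but the log2 fold change of -0.31 (SE 0.10) had an adjusted p of 0.109. Its paralog Slc25a40 had 13.8 ± 0.394 and 13.7 ± 1.49 CPM. The iron importer Slc25a28 had 56.5 to 62.0 CPM in Cre_negative and 50.9 to 57.6 CPM in the Cre_positive group (adjusted p = 0.349). Slc25a46, an outer membrane protein that acts in mitochondrial fission, had 57.0 ± 2.86 and 55.3 ± 6.22 CPM. Of the less known members, Slc25a47 had the smallest p, with 2.26 to 3.20 CPM in Cre_negative and 3.30 to 4.99 CPM in the Cre_positive group and an adjusted p of 0.252.

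Levels spanned a wide range across the family. On the scale of CPM per kb of exon, Slc25a5 stood first at 539 to 732 over the 6 libraries, above Slc25a3 at 188 to 213. Slc25a39 (156 to 226) overlapped in range with Slc25a3 and was above it in Cre_negative replicate 2 alone. Slc25a4 (133 to 181) lay below both Slc25a3 and Slc25a39 in every library. Slc25a10 followed at 85.9 to 130.5 and lay above Slc25a11 (73.6 to 91.0) in every library, though the ranges overlapped. At the low end Slc25a53, Slc25a43 and Slc25a18 had means of 0.465, 0.345 and 0.260 CPM per kb. Of the 9 called members, 4 were in the upper 21 and 5 in the lower 21 protein-coding members by this level.

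**Figure D4:**
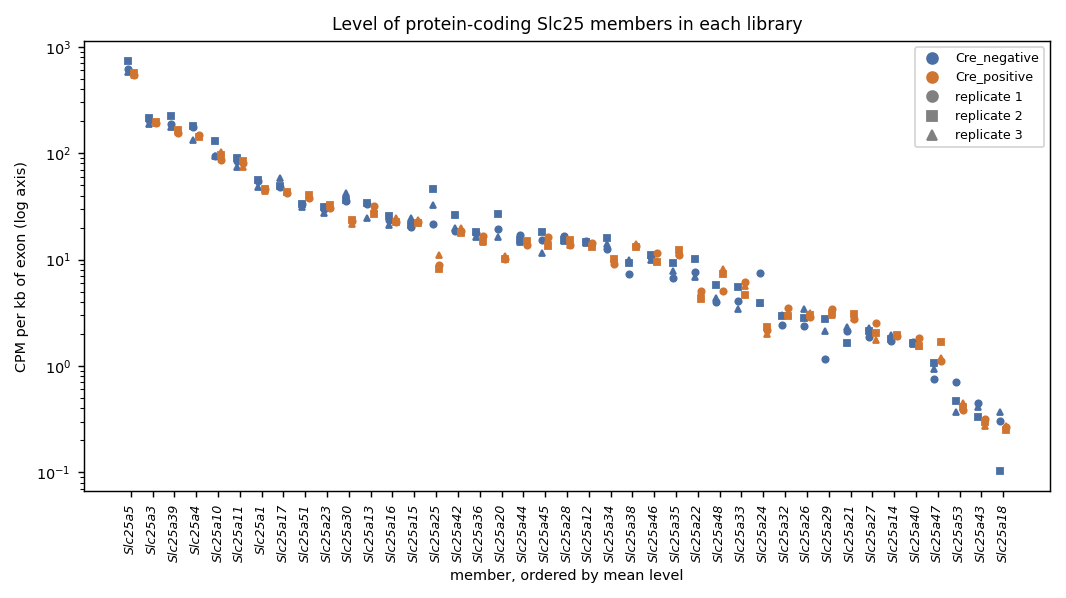
Level of the protein-coding members reported here in CPM per kb of exon on a log axis, ordered by mean level, with a point per library (blue Cre_negative, orange Cre_positive; shapes give replicates). Slc25a5 is highest at 539 to 732 CPM per kb, and Slc25a25, at a mean of 21.4, shows its Cre_negative points above its Cre_positive ones.

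Together the 43 members took 5892, 6760 and 5641 CPM in Cre_negative replicates 1, 2 and 3 and 5296, 5387 and 5350 CPM in the Cre_positive ones. All Cre_positive sums were below the lowest Cre_negative one, and 5 genes, Slc25a3, Slc25a5, Slc25a39, Slc25a4 and Slc25a10, made up 55.5% to 58.4% of each sum. Members varied more among the Cre_negative libraries, with a median coefficient of variation of 14.5%, than among the Cre_positive ones, with 5.39%. The coefficient was larger in Cre_negative for 34 of 43 members, beside 62.0% of all genes. Of the 42 protein-coding members, 25 (59.5%) had their highest Cre_negative level in replicate 2, where 32.0% of all genes did. Among the 6 members that fell, 4 were highest in that library. Members lay on 19 chromosomes, with at most 5 on any.

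Of the 85 tested genes in 7 lists of related function, 8 passed (9.41%, beside 7.55% of all genes), 5 lower and 3 higher in Cre_positive. Of the carriers of this family that go by other symbols, 1 fell and 3 did not pass. Ucp2, an uncoupling protein homologue of the inner membrane, had 388, 427 and 265 CPM in Cre_negative replicates 1, 2 and 3 and 112, 112.2 and 107.3 CPM in the Cre_positive ones. The groups were far apart, with a log2 change of -1.70 (SE 0.16, adjusted p = 0.00157). Mtch1 and Mtch2, outer membrane relatives, had log2 fold changes of 0.08 (SE 0.074) and -0.02 (SE 0.076). Ucp3, at a very low level, had 0.247 to 1.13 CPM in Cre_negative and 0.0702 to 0.225 CPM in the Cre_positive group, without overlap. Its log2 change of -2.27 (SE 0.71) had an adjusted p of 0.0938.

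Other mitochondrial transporters moved in both directions. Of 19 tested, 2 rose and 1 fell: the sideroflexins Sfxn2 and Sfxn5, of a family of inner membrane transporters, changed by 0.44 (SE 0.085, adjusted p = 0.0176) and 0.45 (SE 0.10, adjusted p = 0.0295) on the log2 scale, and the outer membrane translocator protein gene Tspo by -0.63 (SE 0.076, adjusted p = 0.00247). Of 13 genes of the machinery that imports carriers, Tomm20, a receptor of the outer membrane translocase, changed by -0.30 (SE 0.073, adjusted p = 0.0397) and 12 did not pass. Of 8 enzymes of the malate-aspartate and glycerol phosphate shuttles and citrate export, Gpd2, the mitochondrial glycerol-3-phosphate dehydrogenase, fell by 0.63 (SE 0.091, adjusted p = 0.00592) on the log2 scale and 7 did not pass.

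Of 17 genes of the tricarboxylic acid cycle, the NADP-dependent isocitrate dehydrogenase Idh2 rose, from 423 ± 46.1 to 618.8 ± 11.4 CPM (SD, n = 3; log2 fold change 0.55, SE 0.094, adjusted p = 0.0120), and 16 did not pass. Their sum was 6286 to 7334 CPM in Cre_negative and 6585 to 6601 CPM in the Cre_positive group, so it overlapped between the genotypes where the sum of the carriers did not. The sums of carriers under other symbols (599 to 791 against 463 to 493 CPM) and of the import machinery (618 to 679 against 596 to 607 CPM) did not overlap either. Those of the other mitochondrial transporters, the shuttle and citrate export enzymes and the biogenesis regulators overlapped. None of 10 regulators of mitochondrial biogenesis passed, the smallest p being that of the fatty acid receptor Ppara, at 0.36 (SE 0.093, adjusted p = 0.0514) on the log2 scale. Of 14 immediate-early genes, Btg2 changed by -0.97 (SE 0.14, adjusted p = 0.00687) and 13 did not pass. Their sum was 337 to 466 CPM in Cre_negative and 230 to 328 CPM in the Cre_positive group, without overlap, and its part in the fall of Slc25a25 was not tested.

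The cell type markers moved with the genotype beside these results. Markers of the podocyte (3 of 12 rose), of glomerular endothelium (8 of 10) and of the mesangium (3 of 7) held no fall past the threshold. Nor did those of the collecting duct, distal tubule and loop (6 of 11 rose). Among those that did not pass, the endothelial marker Plat lay lower in Cre_positive without overlap (86.6 to 147 against 69.9 to 80.9 CPM). Cdkn1c, Cspg4, Scnn1b and Aqp2 also had negative log2 fold changes, with overlap between the genotypes. Of 9 macrophage markers 2 fell, and none of 10 cell cycle genes or 5 red blood cell genes passed. The summed level of endothelial markers was 579 to 597 CPM in Cre_negative and 755 to 815 CPM in the Cre_positive group, that of mesangial markers 250 to 301 and 371 to 395 CPM, and that of the distal markers 6125 to 7488 and 9747 to 10319 CPM. Macrophage markers summed to 191.5 to 356 and 175 to 191.7 CPM, which overlapped, and cell cycle genes to 107 to 304 and 93.8 to 115 CPM. The 6 falls among the carriers thus stood beside rises of 7 of 14 proximal tubule, 8 of 10 endothelial and 6 of 11 distal markers. In the same libraries 6 of 10 injury markers fell. Over all genes 3.73% rose and 3.82% fell. Within Cre_negative the injury markers summed to 12807, 6244 and 4514 CPM in replicates 1, 2 and 3. Among the 6 falls, 4 were highest in replicate 2, Slc25a24 in replicate 1 and Slc25a30 in replicate 3. The part of any marker list in the falls was not tested.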

How the data were processed

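Glomerular RNA of 6 mouse samples was sequenced from poly(A)-selected, dUTP strand-marked libraries, per the labels' protocols. Per the submitters' processing notes, the tools included HISAT2, StringTie, fastp and edgeR, and the build was GRCm39; versions and roles are not stated. The authors deposited whole-number read counts per Ensembl gene; no source used here states the annotation, the strand setting or how multiply matching reads were handled, so counts of overlapping genes and near-identical copies are uncertain.

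Symbols were matched for 51880 of 57132 rows. Exon lengths, overlaps and chromosomes came from GENCODE M21 on GRCm38, another build, and promoters from RefSeq on GRCm38.p6. Counts were tested with R 4.3.3 and edgeR 4.0.16 (filterByExpr, TMM, quasi-likelihood with robust=TRUE, threshold 0.05), after a check on simulated data. CPM values are TMM-scaled, and SE is the log2 fold change over the square root of F. No 2 libraries differed as little as sampling noise (chi-square per degree of freedom 20.6 or more). The libraries held 53571438 to 58807042 counts each, and the precision of a fold change also rests on the spread between samples of a genotype.

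The members, the lists and the rule for named genes were chosen with earlier results of these data known. Values were given for Slc25a25, each member past the threshold, the smallest p of each role group, up to 3 passing genes per list, and further members after their values were seen. The values of 1 member are not reported here. Other settings used DESeq2 1.42.0, limma 3.58.1 voom, other scaling, filters and thresholds, a replicate block and each library left out.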

Additional observations from a re-analysis of the deposited data

How the results depend on the processing

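The 21 members followed were those called, those with an unadjusted p under 0.05, the smallest p of each role group, and Slc25a3, Slc25a4, Slc25a5 and Slc25a23. None of their log2 fold changes changed sign under any of the 14 other settings that refit the counts. Most were picked for a small p, so a kept sign says little, and members nearest 0, such as Slc25a16 (-0.008), were not followed. With DESeq2 2697 genes were called instead of 1505, and 20 instead of 8 genes of the related lists; among the members 12 were called, all 9 and also Slc25a21, Slc25a17 and Slc25a39. At a threshold of 0.01, 414 of the 19927 genes tested passed, 1 of the 43 members (0 higher and 1 lower, Slc25a30) and 4 of the 85 list genes. Leaving out 1 library at a time gave 462 to 2039 genes, 1 to 10 members (0 to 2 higher, 1 to 8 lower) and 4 to 13 list genes; the fewest members came without Cre_positive replicate 2 and the most without Cre_negative replicate 3, where Slc25a4, Slc25a1 and Slc25a39 passed and Slc25a25 and Slc25a51 did not. The cause of these shifts was not tested, and the fits without 1 library also had fewer samples. The replicate numbers of the labels are not stated to pair mice, so the replicate block was kept as an alternative. Same-numbered libraries deviated together weakly (correlations 0.0547, 0.0551 and 0.0173), the last of these close to the highest of the differently numbered ones (-0.0684 to 0.0170). Deviations from a group mean sum to 0 within a genotype, so the correlations are not independent of each other, and pairing was not settled. The block called 1541 genes, 8 members (2 higher and 6 lower, without Slc25a51 at an adjusted p of 0.0787) and 8 list genes. The call of Slc25a51 also ended with DESeq2 size factors (0.0512), with robust=FALSE (0.0513) and with no filter on low counts (0.0597). With few samples, members near the count minimum such as Slc25a18 and Slc25a5-ps had intervals too wide to show a change of modest size.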
